A study of Mus musculus with 6 samples.

Results

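Cytoplasmic ribosomal protein genes encode the proteins of the ribosome that translates nuclear mRNAs. They were taken from the deposited gene table as the protein-coding rows with an Rpl or Rps symbol followed by a number, plus Rplp0, Rplp1, Rplp2 and Rpsa, without pseudogene (-ps) rows. The rule found 84 genes among 48709 rows, 52 of the large subunit and 32 of the small subunit. RNA-seq was made from F4/80+ CD11b+ peritoneal macrophages, sorted from the cavity of untreated C57BL/6 mice aged 6 to 8 weeks. Macrophages of Zeb1 (+/-) mice, heterozygous for the transcription factor gene Zeb1, were compared with those of Wild-type mice. Each genotype had 3 libraries, and each library was a pool of 2 mice, so the p-values below measure the spread between pools and not between single animals.

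A ribosome holds 1 copy of most of its proteins, which are made in the cytoplasm, imported into the nucleolus and built onto ribosomal RNA with the help of assembly factors. Their mRNAs are short and abundant, and most begin with a C and a run of pyrimidines, the terminal oligopyrimidine (TOP) sequence. Through it, growth signalling by the kinase complex mTORC1 and the RNA-binding protein LARP1 sets their translation together. Macrophages raise or lower the output of this system with growth and activation.

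Libraries held 17859872 to 42165006 counts, and levels are given as CPM, the counts of a gene scaled to library size, where 1 CPM stood for 17.9 to 42.3 counts. Zeb1 had 3.85, 3.45 and 3.62 CPM in the Zeb1 (+/-) libraries, against 5.44, 7.56 and 7.22 CPM in the Wild-type libraries, and the groups did not overlap. Its log2 fold change was -0.89 ± 0.16 (SE, adjusted p = 0.0522 by edgeR's quasi-likelihood test), just short of the threshold of 0.05. Summed macrophage markers (10 genes) lay between 47016 and 63351 CPM in Zeb1 (+/-) and between 45730.2 and 63918 CPM in Wild-type, with overlapping groups and no gene at 0, which fits the labelled cell type. B cell markers (16 genes, none at 0) summed to 131, 115 and 97.6 CPM in Zeb1 (+/-), against 178, 160.0 and 323 CPM in Wild-type, without overlap. Eosinophil and mast cell markers (10 genes, Prg2 and Epx at 0) summed to 19.9, 29.6 and 23.4 CPM against 36.5, 34.5 and 32.8 CPM, also without overlap. Most of that sum was Ear2, with 17.8, 25.8 and 20.6 CPM in Zeb1 (+/-) and 34.4, 31.6 and 29.0 CPM in Wild-type. Of the 6 tested genes of this list, 3 had a log2 fold change above 0, and the median was 0.008, so the list was not lower as a group. T and NK cell markers (14 genes) summed to 2.04 to 2.5 CPM in Zeb1 (+/-) and 1.92 to 4.3 CPM in Wild-type, and neutrophil markers (10 genes, Mpo at 0) to 1.37 to 2.98 and 1.31 to 1.95 CPM, both overlapping. Structural RNA summed to 43.6, 45.5 and 44.3 CPM in Zeb1 (+/-) and to 4.14, 8.69 and 42.2 CPM in Wild-type, so Wild-type replicates 1 and 2 stood apart. The part of these other cells and of structural RNA in the ribosomal protein results was not tested. In bulk samples, fewer cells of a type and less RNA per cell cannot be told apart.

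Start regions of some of these genes hold pyrimidine runs of the TOP kind. RefSeq windows from 250 bases before the annotated start to 50 bases after it were found for 63 of the 84 genes (build GRCm38.p6). A few are printed here, from 40 bases before to 30 bases after the start, 5′ to 3′ on the gene's strand. The start base is therefore letter 41, and capitals mark 1 of 2 motifs that were chosen after the windows had been seen. CTCTTTC, searched on the gene strand, is a pyrimidine run like those of TOP mRNAs, and CCGGAAG, searched on both strands and so also as CTTCCGG, is the core letters of an ETS-family site. Rpl35, Rpl28 and Rpl35a show CTCTTTC beginning at the start base, and Rpl26 shows both motifs. Rpl35a has another annotated start further downstream (window chr16:33056474-33056543, not printed), where the same CTCTTTC lies before the start base. Rpl38, Rps21 and Rpl39, described below, show the ETS letters. The same letters are near the start of Rpl19, Rpl31, Rpl37 and Rps27l, and no relation of the motif to fold change was tested.
Rpl35 (chr2:39005102-39005171, minus strand): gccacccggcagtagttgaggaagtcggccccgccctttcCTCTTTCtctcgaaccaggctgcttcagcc
Rpl28 (chr7:4792925-4792994, plus strand): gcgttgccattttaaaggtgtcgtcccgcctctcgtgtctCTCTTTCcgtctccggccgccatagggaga
Rpl35a (chr16:33056442-33056511, plus strand): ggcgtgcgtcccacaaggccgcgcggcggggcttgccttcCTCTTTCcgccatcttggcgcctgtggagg
Rpl26 (chr11:68901526-68901595, plus strand): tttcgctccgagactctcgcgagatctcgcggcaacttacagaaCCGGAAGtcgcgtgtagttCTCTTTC
Rpl38 (chr11:114668540-114668609, plus strand): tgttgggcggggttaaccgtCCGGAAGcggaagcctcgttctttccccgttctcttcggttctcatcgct
Rps21 (chr2:180257339-180257408, plus strand): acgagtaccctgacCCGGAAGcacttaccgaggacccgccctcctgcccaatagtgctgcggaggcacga
Rpl39 (chrX:37085193-37085262, minus strand): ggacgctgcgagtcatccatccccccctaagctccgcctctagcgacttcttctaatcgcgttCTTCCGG

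Over the whole windows, CCGGAAG on either strand was in 26 of 63 ribosomal protein genes (41.3%) and in 2683 of 27025 genes of the RefSeq table (9.9%). CTCTTTC was in 13 of 63 (20.6%) against 1244 of 27025 (4.6%). A C at the start base followed by 4 pyrimidines was also in 13 of 63 (20.6%), against 813 of 27025 (3.0%). TATAAA lying roughly 20 to 40 bases before the start, with a few bases more allowed on each side, was in 1 of 63 (1.6%), against 695 of 27025 (2.6%). CCGGAAG and CTCTTTC were chosen after these windows had been seen, so their higher shares are a description and not a test. The 27025 genes include the 63. These matches describe the letters of annotated starts, and no binding was measured.

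Ribosomal protein mRNAs had slightly and evenly higher values in Zeb1 (+/-) macrophages, and no single gene passed the test. Summed over the 84 genes they made 44505, 48429 and 46385 CPM in Zeb1 (+/-), against 43333, 40134 and 42201 CPM in Wild-type. The means were 46439.5 ± 1963 CPM in Zeb1 (+/-) and 41889.6 ± 1622 CPM in Wild-type (SD, n = 3 each), a ratio of 1.11, and the groups did not overlap. Every Zeb1 (+/-) library lay above every Wild-type library, but Zeb1 (+/-) replicate 1 stood close to Wild-type replicate 1. As a share of all counts, the family took 4.46, 4.86 and 4.53% in Zeb1 (+/-) and 4.32, 4.03 and 4.28% in Wild-type.

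Of the 84 genes, 82 had enough counts to be tested and 2, Rpl10l and Rpl3l, had not. By edgeR's quasi-likelihood test with Benjamini-Hochberg adjustment over 12940 genes, 0 of the 82 passed an adjusted p of 0.05 in either direction, where 0.587% of all tested genes did, 0.155% higher and 0.433% lower. The smallest adjusted p was 0.116. At an unadjusted p under 0.05, 36 of 82 were higher in Zeb1 (+/-), where 6.3% of all tested genes were, and 0 were lower, where 8.26% were. The log2 fold change was above 0 for 81 of 82, against 49.9% of all tested genes. The groups did not overlap for 53 of 82, all higher in Zeb1 (+/-), against 9.6% of all tested genes, and for 0 of 82 they lay lower, against 10.3%. The median log2 fold change of the 82 was 0.157 (quartiles 0.116 and 0.195), which is 11.5% higher on the linear scale, and that of all tested genes was -0.0 (quartiles -0.123 and 0.11). DESeq2 called 4 of the 82 higher, among them Rpl12, Rpl39 and Rps21, where it called 0.848% of all genes with an adjusted p. Without the low-count filter edgeR called Rpl12 and Rps21, where 0.981% of all genes were called higher, and limma-voom called 0.

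**Figure D1:**
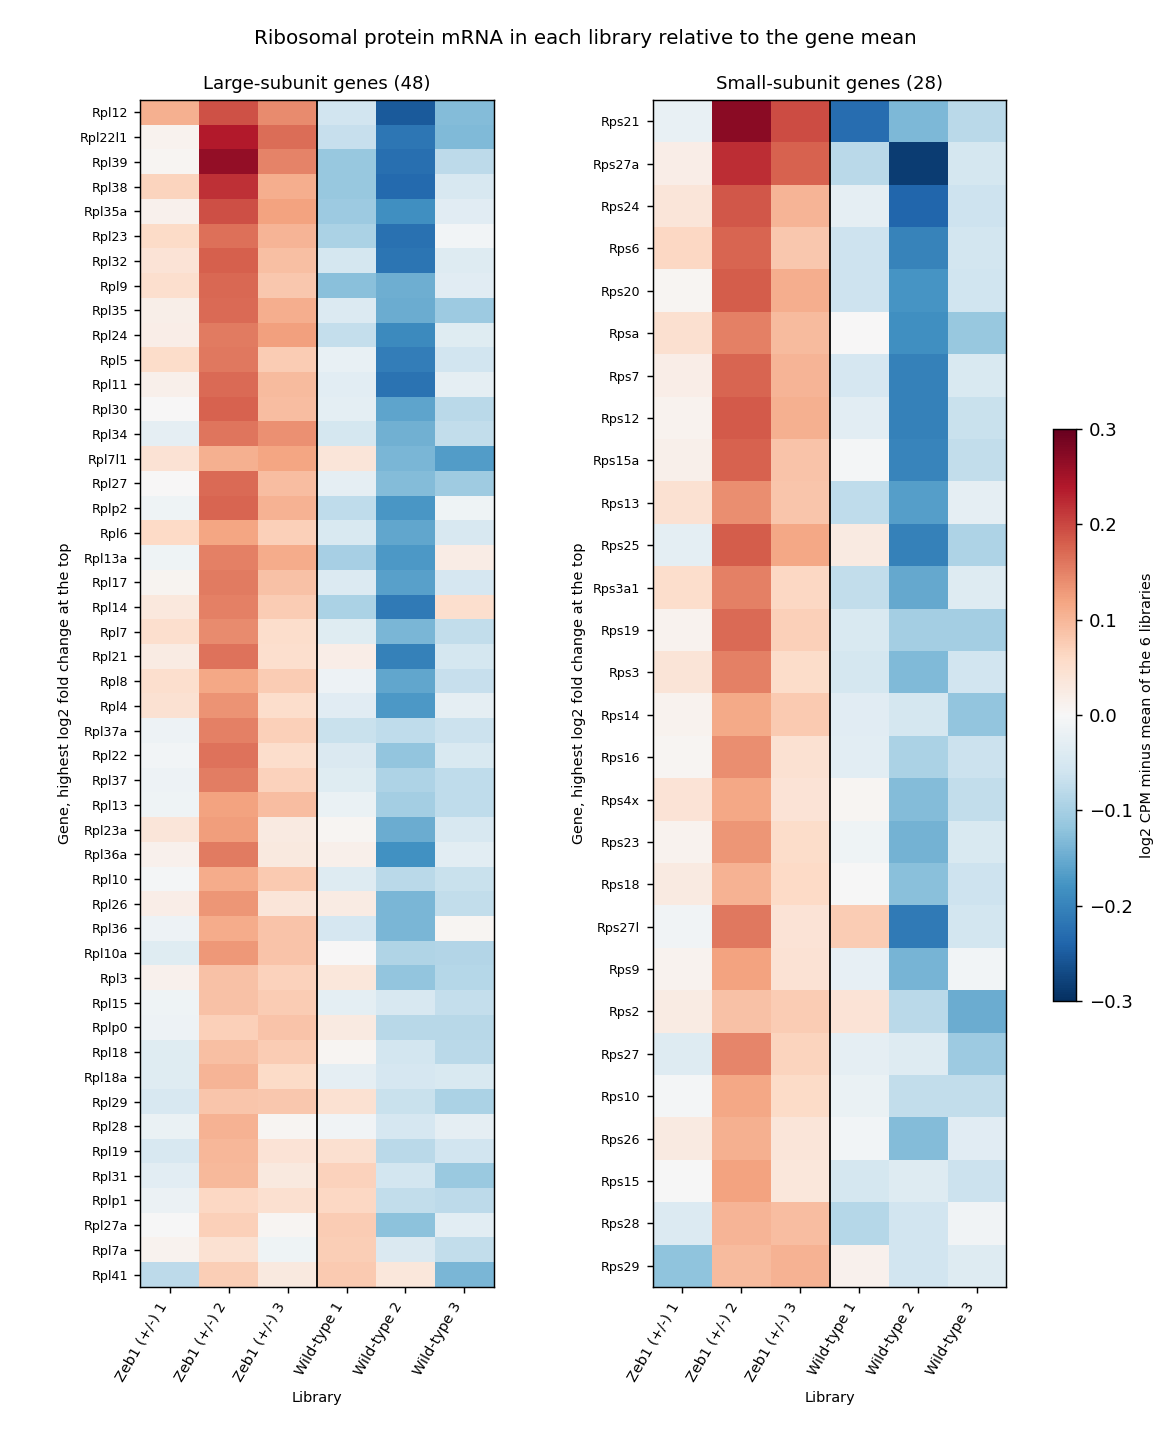
Level of each ribosomal protein gene in each library, as the log2 difference from the gene's own mean over the 6 libraries, with Zeb1 (+/-) libraries left of Wild-type libraries. Rows are 76 genes with a mean of at least 20 CPM, 48 of the large and 28 of the small subunit, and colour runs from lower (blue) to higher (red). Over all 80 genes at that level, Zeb1 (+/-) replicate 2 was highest for 72 of 80 genes and Wild-type replicate 2 was lowest for 62 of 80.

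Values of the 2 subunits were alike. Large-subunit genes summed to 24963, 27095 and 26038 CPM in Zeb1 (+/-) and to 24431, 22597 and 23779 CPM in Wild-type, a ratio of means of 1.1. Small-subunit genes summed to 19542, 21334 and 20347 CPM in Zeb1 (+/-) and to 18902, 17537 and 18422 CPM in Wild-type, a ratio of 1.12. In neither subunit did the groups overlap. All 50 tested large-subunit genes had a log2 fold change above 0, 21 of them at an unadjusted p under 0.05 and 29 without overlap of the groups, with a median of 0.157 (quartiles 0.114 and 0.186). Of the 32 small-subunit genes 31 lay above 0, 15 at an unadjusted p under 0.05 and 24 without overlap, with a median of 0.15 (quartiles 0.117 and 0.198). Of all tested genes, 49.9% lay above 0, 6.3% were higher at an unadjusted p under 0.05 and 9.6% were higher without overlap.

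The ratio of small-subunit to large-subunit CPM within a library, a measure that depth does not enter, was 0.783, 0.787 and 0.781 in Zeb1 (+/-), against 0.774, 0.776 and 0.775 in Wild-type. The groups did not overlap, but the log2 difference was only 0.017, and no test was made on a sum over chosen genes. Its size depended on which genes were summed. Over the 13 genes whose sequence is at least 80% their own (8 large, 5 small, among them Rps3, Rpl8 and Rpl22), the log2 difference was -0.0004. The 8 large-subunit genes include Rpl10l, Rpl3l and Rpl39l, which had almost no counts, so that sum rests on few genes. A shift of one subunit against the other was therefore not established.

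**Figure D2:**
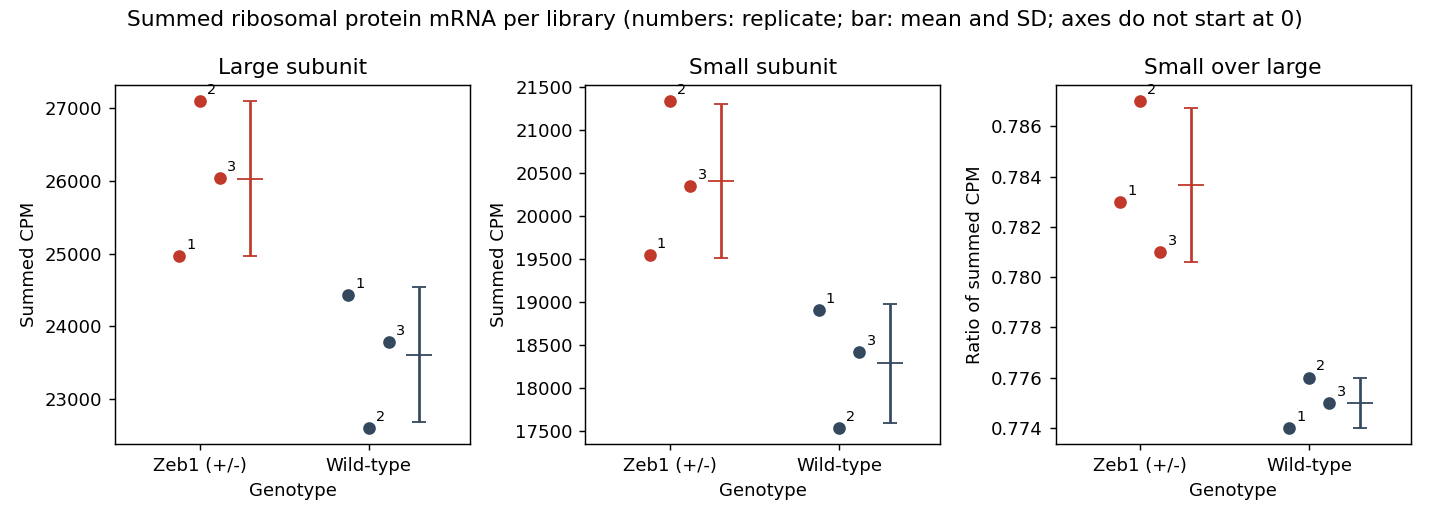
Summed CPM of large-subunit genes, of small-subunit genes, and the ratio of small to large, each in 3 Zeb1 (+/-) libraries left of 3 Wild-type libraries. Points are libraries, numbers are replicates, bars show the mean and SD, and the axes do not start at 0. The Zeb1 (+/-) points lie above the Wild-type points in each panel, and the ratio panel spans only 0.774 to 0.787.

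The rank of the libraries was shared by nearly the whole family. Among the 80 tested genes with a mean of at least 20 CPM, Zeb1 (+/-) replicate 2 was the highest library for 72, and Wild-type replicate 2 was the lowest for 62. Among 6415 other tested genes at the same level, those libraries were highest for 17.1% and lowest for 21.3%. The median large-subunit gene deviated from its own mean by 0.008, 0.146 and 0.077 (log2) in the Zeb1 (+/-) libraries and by -0.031, -0.142 and -0.065 in the Wild-type libraries. For the small subunit the values were 0.011, 0.148 and 0.077 in Zeb1 (+/-) and -0.03, -0.138 and -0.062 in Wild-type. The 3 Zeb1 (+/-) libraries thus differed among themselves by nearly as much as the genotypes did. The count higher at an unadjusted p under 0.05 was 36 with all libraries. Leaving out Zeb1 (+/-) replicate 1, 2 or 3 made it 46, 8 or 21. Leaving out Wild-type replicate 1, 2 or 3 made it 39, 9 or 28, and without both replicate 2 libraries it was 1. Calls over the whole table moved too, from 20 higher and 56 lower at an adjusted p under 0.05 by edgeR with all libraries. Without Zeb1 (+/-) replicate 1, 2 or 3 they were 13 and 15, 6 and 5, or 36 and 91. Without Wild-type replicate 1, 2 or 3 they were 16 and 45, 4 and 1, or 30 and 49. With both replicate 2 libraries left out, they were 0 and 0. In the last case the medians were 0.088 for the large and 0.096 for the small subunit, and 79 of 82 genes had a log2 fold change above 0. A term for low structural RNA (Wild-type replicates 1 and 2) left only Wild-type replicate 3 to set against the Zeb1 (+/-) libraries. In that model the medians were 0.137 for the large and 0.148 for the small subunit.

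Rpl12, which sits at the base of the stalk that recruits translation factors, had the smallest p of the large subunit. The gene (ENSMUSG00000038900.17) lies at chr2:32961559-32965345 on the plus strand of GRCm38. It had 621, 659 and 636 CPM in Zeb1 (+/-), against 554, 485 and 527 CPM in Wild-type. The Zeb1 (+/-) libraries were all higher and close to each other. The log2 fold change was 0.29 ± 0.07 (SE, 95% interval 0.13 to 0.45, adjusted p = 0.116 by edgeR).

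Rpl38, whose loss of 1 copy disturbs the axial skeleton in mice, had 193, 215 and 199 CPM in Zeb1 (+/-) and 170.5, 157 and 179 CPM in Wild-type, a log2 fold change of 0.26 ± 0.07 (adjusted p = 0.158 by edgeR). Rpl39, a very small protein of the tunnel through which the new peptide leaves, had 279, 334 and 308 CPM in Zeb1 (+/-) and 257, 237 and 263 CPM in Wild-type. Its log2 fold change was 0.28 ± 0.08 (adjusted p = 0.165 by edgeR), and in both genes the groups did not overlap. Around the tunnel exit, 9 genes were tested, with 4 at an unadjusted p under 0.05, 6 without overlap and a median of 0.154. The whole family had 36 and 53 of 82 and a median of 0.157, so the tunnel exit genes were like the rest. Of all tested genes, 6.3% and 9.6% were higher in these ways. Rpl19 and Rpl31, also at the tunnel exit, had log2 fold changes of 0.06 each.

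In the small subunit, Rps21 had 186, 227 and 216 CPM in Zeb1 (+/-) and 161, 172 and 178 CPM in Wild-type, the largest log2 fold change among genes of at least 20 CPM, 0.3 ± 0.09 (adjusted p = 0.164 by edgeR). Here Zeb1 (+/-) replicate 1 lay near the Wild-type range. Rps27a, made as a fusion of ubiquitin with a small-subunit protein, had 498, 573 and 556 CPM in Zeb1 (+/-) and 464, 403 and 473 CPM in Wild-type, a log2 fold change of 0.28 ± 0.08 (adjusted p = 0.19 by edgeR).

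The small-subunit face that meets initiation factors and carries signalling contacts was represented by Rps6, Rpsa, Rps3a1, Rps21 and Rps25. Of these, 4 had an unadjusted p under 0.05 and 4 had no overlap (median 0.196). In the whole family the counts were 36 and 53 of 82 (median 0.157), and 6.3% and 9.6% of all tested genes were higher. No role group was tested against another or against the family. Rps6, the protein phosphorylated by S6 kinase downstream of mTORC1, had 861, 930.4 and 873 CPM in Zeb1 (+/-), against 789.8, 718 and 793 CPM in Wild-type (log2 fold change 0.21 ± 0.07, adjusted p = 0.223 by edgeR). Genes of the mRNA channel and decoding region had a lower median of 0.114, with 1 of 7 at an unadjusted p under 0.05 and 4 without overlap. That gene, Rps3, at the mRNA entry site, had 786, 849 and 795 CPM in Zeb1 (+/-) and 738, 698 and 735 CPM in Wild-type, a log2 fold change of 0.16 ± 0.06 (adjusted p = 0.304 by edgeR).

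The P stalk, made of Rplp0, Rplp1 and Rplp2, recruits and activates the elongation factor GTPases. Rplp0, often used as a reference transcript in quantitative PCR, had 1104, 1172 and 1183 CPM in Zeb1 (+/-), against 1136, 1053 and 1052 CPM in Wild-type. Rplp1 had 925, 977 and 969 CPM in Zeb1 (+/-) and 977, 890.1 and 887 CPM in Wild-type. In both, Wild-type replicate 1 reached into the Zeb1 (+/-) range, and the log2 fold changes were 0.09 ± 0.07 and 0.06 ± 0.07 (adjusted p = 0.553 and 0.724 by edgeR). Rplp2 had 362, 413 and 393 CPM in Zeb1 (+/-) and 347, 324 and 362 CPM in Wild-type, with a log2 fold change of 0.18 ± 0.07. The ratio of Rplp1 to Rplp0 was 0.837, 0.834 and 0.819 in Zeb1 (+/-), against 0.86, 0.845 and 0.843 in Wild-type, a log2 difference of -0.034 without overlap.

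Rpl5 and Rpl11 join 5S ribosomal RNA before it enters the large subunit, and outside the ribosome the complex binds the p53 regulator MDM2. Rpl5 had 921, 991 and 935 CPM in Zeb1 (+/-) and 873, 768 and 853 CPM in Wild-type. Rpl11 had 464, 517 and 491 CPM in Zeb1 (+/-) and 449, 394 and 450.5 CPM in Wild-type. The groups overlapped in neither gene, with log2 fold changes of 0.19 ± 0.07 and 0.19 ± 0.08 (adjusted p = 0.28 and 0.314 by edgeR), and the ratio of Rpl11 to Rpl5 overlapped between genotypes. Genes mutated in human Diamond-Blackfan anaemia, a failure of red cell production, had 8 of 14 at an unadjusted p under 0.05 and 11 of 14 without overlap, with a median of 0.173, beside 36 and 53 of 82 in the whole family and 6.3% and 9.6% of all tested genes.

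**Figure D3:**
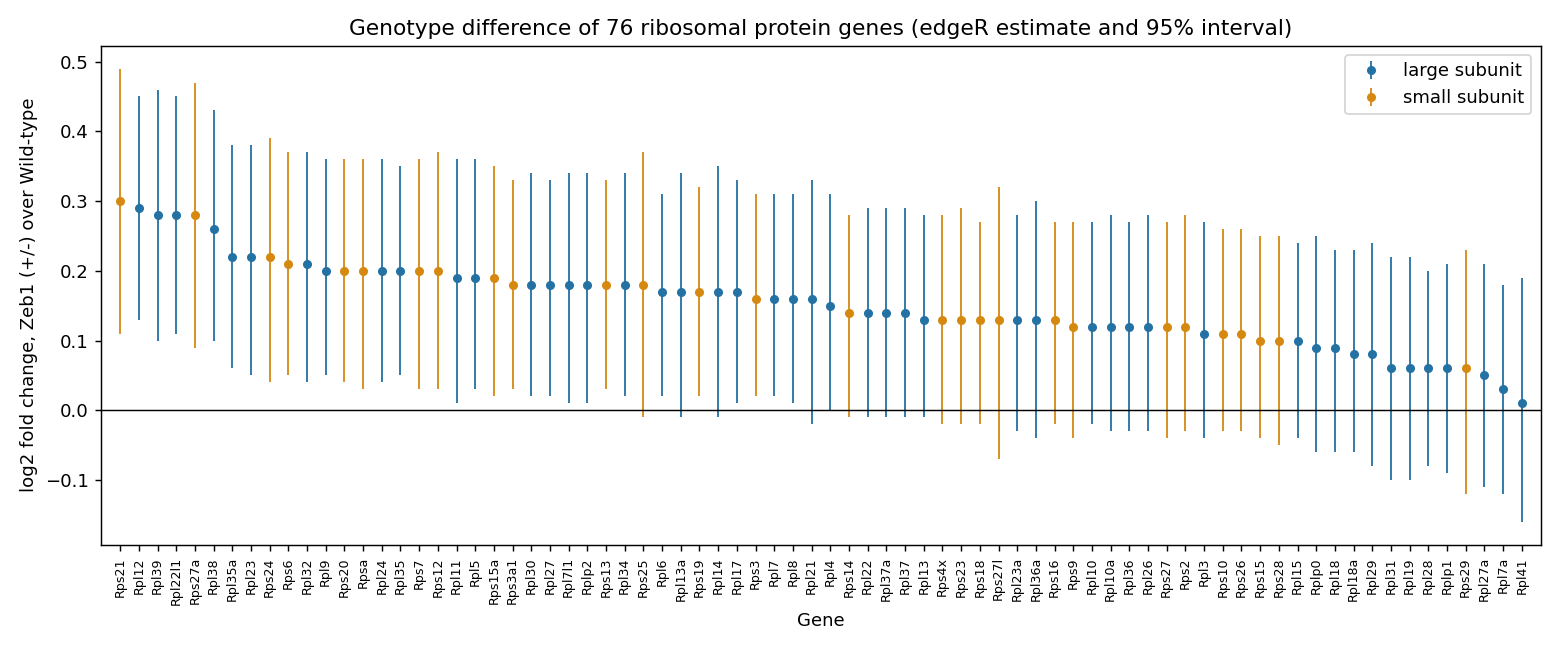
Log2 fold change (Zeb1 (+/-) over Wild-type, vertical axis) of 76 of the 80 ribosomal protein genes with a mean of at least 20 CPM. Points carry their 95% interval, are coloured by subunit and run from high to low. Each of the points drawn lies above 0, from 0.3 for Rps21 down to 0.01 for Rpl41, and many intervals reach below 0. The genes not drawn include the lowest small-subunit value, -0.01.

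At the low end, named after the values were seen, Rpl41, which encodes the shortest of the ribosomal proteins, had 346, 384 and 373 CPM in Zeb1 (+/-) and 386, 374 and 332 CPM in Wild-type (0.01 ± 0.08). Rpl7a had 638, 654 and 629 CPM in Zeb1 (+/-) and 667, 615 and 603 CPM in Wild-type (0.03 ± 0.07). Set against the summed family in the same library, Rpl41 and Rpl7a had log2 share differences of -0.132 and -0.12. Rps21, Rpl12, Rpl39 and Rps27a stood at the other end, with 0.147, 0.145, 0.131 and 0.131.

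Several members are copies of a main gene with their own expression. Rpl22l1, a paralogue of Rpl22 that can take its place in the ribosome, had 57.7, 67.5 and 64.4 CPM in Zeb1 (+/-), against 54.6, 49.3 and 52.3 CPM in Wild-type (log2 fold change 0.28 ± 0.08, adjusted p = 0.153 by edgeR). Relative to Rpl22 it was 0.269, 0.279 and 0.288 in Zeb1 (+/-) and 0.261, 0.248 and 0.25 in Wild-type, a log2 difference of 0.139 without overlap. Rpl7l1, a paralogue of Rpl7, had 89.5, 93.5 and 94.2 CPM in Zeb1 (+/-) and 89.1, 79.0 and 77.3 CPM in Wild-type (0.18 ± 0.07, adjusted p = 0.308 by edgeR). Rps27l, a p53-responsive copy of Rps27, had 42.2, 47.5 and 43.7 CPM in Zeb1 (+/-) and 44.8, 36.7 and 40.9 CPM in Wild-type, with overlap (0.13 ± 0.09). Their ratios to Rpl7 and Rps27 overlapped between genotypes. Rpl39l, known from male germ cells, had 0.335, 0.803 and 0.457 CPM in Zeb1 (+/-) and 0.3, 0.568 and 0.425 CPM in Wild-type (0.4 ± 0.42), so its direction was not detectable at this depth, and it was negative without Zeb1 (+/-) replicate 2 (-0.06). Rpl3l, the form of heart and skeletal muscle, had 2, 0 and 2 counts in Zeb1 (+/-) and 1, 1 and 1 in Wild-type. The testis form Rpl10l had 0 counts in all 6 libraries, which allows up to 0.0711 to 0.168 CPM per library (3 counts, counting error only). Rpl6l, for which the annotation holds no coding sequence, was at 0.893, 1.06 and 1.01 CPM in Zeb1 (+/-) and 0.841, 0.994 and 0.797 CPM in Wild-type.

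Levels between genes were compared only per kilobase of annotated transcript. On that scale, the median gene of at least 20 CPM stood at 745 CPM per kb in the small and 524 CPM per kb in the large subunit, over all 6 libraries, with ranges of 79.2 to 1687 and 33.4 to 1879. The highest large-subunit genes were Rplp1, at 1917 CPM per kb in Zeb1 (+/-) and 1839.7 in Wild-type, and Rpl10, at 1924 and 1766, with Rpl32 at 1087 and 943 and Rpl26 at 1059 and 971. In the small subunit, Rps29 was at 1721 in Zeb1 (+/-) and 1654 in Wild-type, Rps9 at 1389 and 1282, and Rps4x at 1345 and 1227. Rpl10 joins the large subunit at the last step of its maturation, and its CPM did not overlap between genotypes (log2 fold change 0.12, adjusted p = 0.41 by edgeR). Rps29, a zinc-binding protein, overlapped (605, 702 and 706 CPM in Zeb1 (+/-), 663, 632 and 640.1 CPM in Wild-type). The lowest values per kb come partly from long annotated transcripts, such as the 5179 bases given for Rps15a.

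Ribosomal protein genes have many processed copies in the genome, and reads cannot always be placed. In the median gene of at least 20 CPM, 49.1% of 50-base stretches also occur in annotated transcripts of other genes, with 98.6% for Rps27 (shared with Rps27rt), 93.3% for Rpl9 and 92.1% for Rpl10. The 11 tested genes with at least 80% unique stretches all had a log2 fold change above 0, of which 9 did not overlap, and their median was 0.176. In the whole family 53 of 82 were higher without overlap, and 9.6% of all tested genes were. Rps3, with 3.0% shared, had 0.16, and Rpl8, with 7.9%, had 0.16. The 275 pseudogene rows summed to 169, 192 and 163 CPM in Zeb1 (+/-) and 164, 156 and 153 CPM in Wild-type, with overlap. Members lay on 19 chromosomes. Chromosome 18, which also holds Zeb1, carried Rps14, with 539, 579 and 565 CPM in Zeb1 (+/-) and 522, 516 and 493 CPM in Wild-type (log2 fold change 0.14 ± 0.06), and Rpl17 (0.17 ± 0.07).

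Genes that build ribosomes and work with them were taken as 7 related lists. None had a gene past an adjusted p of 0.05 by edgeR with the low-count filter, so directions are given as counts, to be read against 6.3% of all tested genes higher at an unadjusted p under 0.05 and 9.6% higher without overlap. Without the filter, edgeR called Dkc1, Fbl, Nop58, Eif2s1, Etf1 and Myc higher, where 0.981% of all genes were called higher. Of 48 tested ribosome assembly factors, 47 had a log2 fold change above 0, 19 had an unadjusted p under 0.05, all higher, 19 did not overlap, and the median was 0.177. Dkc1, the pseudouridine synthase of box H/ACA particles, had 20.7, 22.3 and 21.3 CPM in Zeb1 (+/-) and 17.8, 15.8 and 16.2 CPM in Wild-type, a log2 fold change of 0.37 ± 0.08 (adjusted p = 0.0855 by edgeR). Of 15 RNA polymerase I genes 12 were above 0, with a median of 0.107 and 1 at an unadjusted p under 0.05, near the share over all tested genes (6.3%). Cd3eap, a subunit of that polymerase, had 13.2, 12.9 and 11.6 CPM in Zeb1 (+/-) and 9.97, 10.1 and 11.1 CPM in Wild-type (0.28 ± 0.09, adjusted p = 0.236 by edgeR). The 4 ribosome components outside the symbol rule, Rack1 among them, were all above 0, with 0 at an unadjusted p under 0.05 and a median of 0.115. Rack1, a scaffold protein on the head of the small subunit, had 1188, 1250.2 and 1245 CPM in Zeb1 (+/-) and 1157, 1089.6 and 1114 CPM in Wild-type, without overlap (0.13 ± 0.06).

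Translation initiation factors were above 0 in 35 of 37 (5 at an unadjusted p under 0.05, 8 without overlap, median 0.103), led by Eif2s1, a subunit of the factor that brings the initiator tRNA. Eif2s1 had 69.3, 72.0 and 73.4 CPM in Zeb1 (+/-) and 64.7, 56.1 and 55.3 CPM in Wild-type (log2 fold change 0.29 ± 0.08, adjusted p = 0.146 by edgeR). Elongation and termination factors were above 0 in 10 of 11 (4 at an unadjusted p under 0.05, 4 without overlap, median 0.127). Etf1, the factor that reads stop codons, had 168, 151 and 133 CPM in Zeb1 (+/-) and 107, 111 and 134 CPM in Wild-type, which overlapped (0.36 ± 0.11, adjusted p = 0.187 by edgeR). Eef1a1, which brings aminoacyl-tRNA to the ribosome, had 7273, 7705 and 7366 CPM in Zeb1 (+/-) and 7222, 6752 and 7237 CPM in Wild-type (0.08 ± 0.07). Eef2, which moves the ribosome along the mRNA, had 2179, 2203 and 2247 CPM in Zeb1 (+/-) and 2172, 2239 and 2296 CPM in Wild-type (-0.02 ± 0.06). Mitochondrial ribosomal protein genes, which serve the separate ribosome of the organelle, were above 0 in 67 of 77, with 10 at an unadjusted p under 0.05, 16 without overlap and a median of 0.106. Mrpl42 had 29.7, 29.8 and 30.1 CPM in Zeb1 (+/-) and 27.4, 24.2 and 25.5 CPM in Wild-type (0.22 ± 0.07, adjusted p = 0.218 by edgeR). DESeq2 called Etf1 and Dkc1 higher and no other gene of the 7 lists, where it called 0.848% of all genes with an adjusted p higher.

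Genes that govern TOP mRNAs were split evenly about 0. Of 16 tested, 8 had a log2 fold change above 0, and the median was 0.001. At an unadjusted p under 0.05, 2 were higher and 0 lower, and 1 of those 2 was Rps6, itself a ribosomal protein. Mtor, the kinase of the complex, had 33.8, 35.1 and 38.4 CPM in Zeb1 (+/-) and 35.5, 44.5 and 38.4 CPM in Wild-type (-0.14 ± 0.09). Larp1, which holds TOP mRNAs back when mTORC1 is off, had 143, 139 and 145 CPM in Zeb1 (+/-) and 134, 150.4 and 142 CPM in Wild-type (0.0 ± 0.07). The other, Myc, which drives transcription of ribosome genes, had 57.7, 64.8 and 81.9 CPM in Zeb1 (+/-) and 60.7, 52.3 and 48.8 CPM in Wild-type, with overlap (0.34 ± 0.13, adjusted p = 0.284 by edgeR). RNA-seq measures mRNA, so the activity of mTORC1 and the translation of these mRNAs were not observed.

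**Figure D4:**
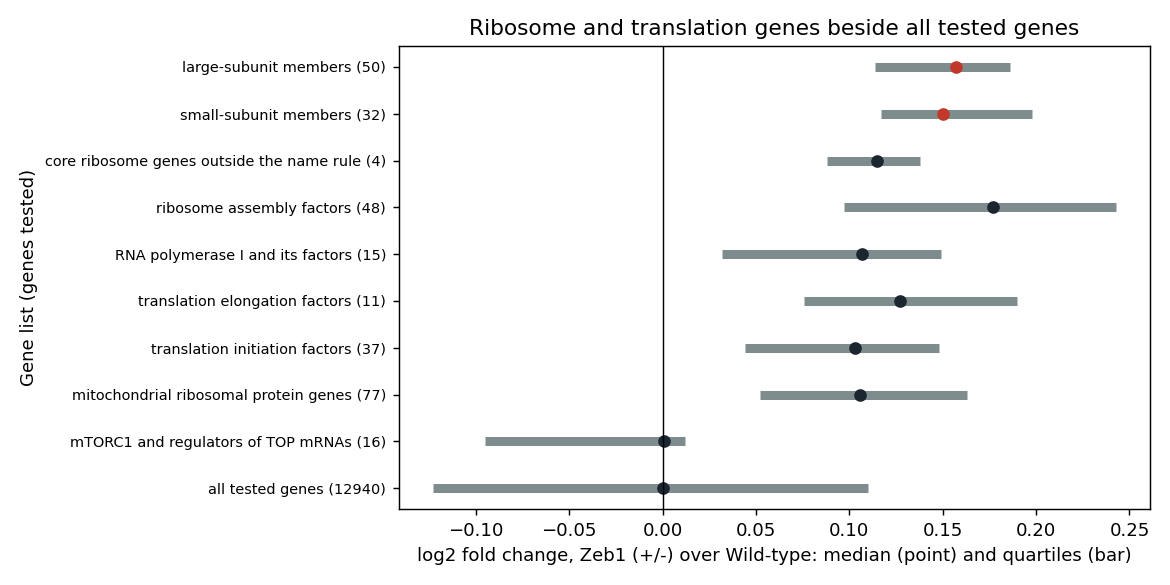
Log2 fold change (Zeb1 (+/-) over Wild-type, horizontal axis) in the large and small subunits, 7 related lists and all tested genes, with the median of each as a point and its quartiles as a bar. The medians of both subunits (0.157 and 0.15) and of assembly factors (0.177) lie above 0, and that of the mTORC1 and TOP regulators (0.001) lies at it.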

How the data were processed

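The deposited table holds expected counts per gene, whole numbers in 1 column per library. The submitters' processing notes name STAR, RSEM and edgeR, without versions, and the build GRCm38; the authors' use of each is not spelled out. RNA came from RNAzol and libraries from a stranded mRNA kit, per the labels' protocols. The strand setting and the annotation release are not given in the sources used here. The counts were already whole, so rounding changed nothing.

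Genes were tested in R 4.3.3 with edgeR 4.0.16: filterByExpr (minimum count 10, minimum total 15), TMM scaling, quasi-likelihood test of genotype over 6 libraries, and Benjamini-Hochberg adjustment over 12940 genes (threshold 0.05). CPM uses TMM-scaled sizes. Means carry the SD over 3 libraries and intervals are 95%. A count of 0 allows 3 counts. Gene models are GENCODE M21, which matched all 84 members, and start windows are RefSeq.

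Members, lists and roles were chosen with earlier results of these data known. Named were the 4 smallest p-values and 3 highest levels per kb in each subunit, the 4 largest changes, the stalk, 5S, ubiquitin fusion and paralogue genes, 1 leading gene of each other role group, Rps14, and the smallest p of each related list. Others are named as examples. Some genes of the rule are not reported here by name, though they are in the counts, sums and medians. Alternatives were RLE factors, library totals, scaling without ribosomal protein genes, no filter, 1 CPM in 3 libraries, DESeq2 1.42.0, limma-voom (limma 3.58.1), robust moderation, a structural RNA term, a replicate block, an adjusted p of 0.1 and leaving out each library. Leaving out both replicate 2 libraries was added after seeing the data. Libraries held 17859872 to 42165006 counts.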

Additional observations from a re-analysis of the deposited data

How the results depend on the processing

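The count of ribosomal protein genes past the threshold, 0 by edgeR, was 2 without the low-count filter and 4 by DESeq2, and 0 in each fit that left out 1 library. The large-subunit median lay between 0.121 and 0.185 and the small-subunit median between 0.125 and 0.181 when libraries were left out in turn. Without both replicate 2 libraries, a setting added after seeing the data, they were 0.088 and 0.096. The small to large ratio (0.017) lay between 0.0136 and 0.019 with libraries left out, was 0.009 by mean log2 CPM and -0.0004 over the 13 genes with mostly unique sequence. Rpl39l (0.4) lay between -0.06, without Zeb1 (+/-) replicate 2, and 0.68. Over all genes, edgeR called 20 higher and 56 lower, against 106 and 218 by DESeq2 and 207 and 315 without the filter. With the structural RNA term, which left only Wild-type replicate 3 to set against Zeb1 (+/-), the medians were 0.137 and 0.148. Scaling without ribosomal protein genes gave 0.159 and 0.151.

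Deviations of same-numbered libraries correlated at -0.369, -0.0688 and -0.293, and those of differently numbered libraries at -0.0818 to 0.384. Taken from genotype means of 3 libraries each, these values cannot decide whether the replicate numbers pair the libraries. With the replicate block, 0 ribosomal protein genes passed, 10 had an unadjusted p under 0.05, the medians were 0.158 and 0.15, and 6 genes were higher and 9 lower over all genes.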

Other observations

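Short genes outside the family had a median log2 fold change above 0. Of 1600 other tested genes with an annotated transcript under 1200 bases, 62.7% had a log2 fold change above 0, against 49.6% of all 12858 other tested genes, and their median was 0.067. The 111 of them with a mean over 100 CPM had a median of 0.065, with 63.1% above 0 and 11.7% without overlap of the groups and higher in Zeb1 (+/-), near the 9.25% of all other tested genes. The median of the ribosomal protein genes, 0.157, lay above both. The part of transcript length in the ribosomal protein values was not tested.

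Within the family, over 80 genes that share libraries and depth, log2 fold change against transcript length had Pearson's r of 0.11 and Spearman's rho of 0.08. Against GC content r was -0.25 and rho -0.27, against level per kb r was -0.24 and rho -0.2, and against the share of stretches found in other genes r was -0.07 and rho -0.08. These correlations are across genes, which are not independent replicates.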
